A study of Drosophila melanogaster with 4 samples.

Results

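The transcripts of mod(mdg4), lola, ttk, psq, fru, ken and Dscam were followed in whole pharate adults of Drosophila melanogaster, the stage at which the adult is fully formed inside the pupal case. These 7 genes are grouped as genes with trans-spliced or very many isoforms, and their members are the loci that carry 1 of the 7 symbols as their only name. The rule found 7 loci, 1 per symbol, among 13866 loci, of which 12066 carried a single name. A further 2 loci join the name mod(mdg4) with other names and are described apart from the 7.

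By its title, the series was made to study chimeric reads. RNA was taken from 4 lines, LU.10580hom (hom below), LU.10580.tg1 (tg1), LU.10580.tg2 (tg2) and LU.10580/CAG (CAG). All 4 names share LU.10580, and the value column of CAG is headed het. The sources used here do not give the genotypes, the alleles or transgenes, the sex and exact age of the animals, or how many were pooled. Flies were raised at 24 °C. Each line had 1 library, so no difference has a replicate check and no p-value was computed.

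mod(mdg4), lola, ttk, psq, fru and ken encode nuclear proteins that share a BTB domain, a module by which such proteins pair with each other, and many of their isoforms end in different DNA-binding or protein-binding tails. In mod(mdg4), lola and fru the common front end is spliced to alternative tails, so that a single gene yields several regulators with different targets. In mod(mdg4) and lola some of these tails come from a separate precursor RNA, which is joined to the front end by trans-splicing, and in mod(mdg4) some precursors are transcribed from the opposite DNA strand. Dscam has no BTB domain. It encodes a cell surface receptor of the immunoglobulin superfamily whose alternative exons, chosen one per cluster, give neurons distinct surface identities for self-avoidance.

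The current annotation (Release 6, RefSeq and Ensembl) shows how far the genes differ in this property. RefSeq lists 75 transcripts for Dscam (now named Dscam1), 31 for mod(mdg4), 25 for lola, 15 each for psq and fru and 8 for ttk, against a median of 2 over 13949 protein-coding genes. ken has 1 annotated transcript, so ken goes against the label of a multi-isoform gene and is kept here by the rule only. In the Ensembl models the coding part of mod(mdg4) ends in 22 different last exons, that of lola in 20, fru in 5, and psq and ttk in 2 each. Ensembl holds 22 transcripts of mod(mdg4) and 24 of lola, fewer than RefSeq, so these counts of tails may be incomplete. Dscam differs in kind: its 75 transcripts share 1 last coding exon and draw on 116 distinct coding exons, of which 15 are in every transcript. In the same Ensembl models mod(mdg4) has 1 transcript start, fru has 7, psq has 5, and lola and ttk have 4 each. Inside the span of mod(mdg4) the annotation places 23 separately named precursor genes, 9 on the plus strand and 14 on the minus strand, which is the strand of mod(mdg4) itself. lola, also on the minus strand, holds 1 such precursor gene, and the other 5 genes hold none. The deposited values give 1 level per locus, so they do not resolve isoforms.

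Expression was deposited as FPKM, fragment counts divided by transcript length and library depth, which allows levels of different genes to be set side by side. A locus was tested where its mean over the libraries reached 1 FPKM, and all 7 loci passed this filter, as did 11689 loci in all. No member was listed at 0 in any library. Differences between libraries are given on the log2(FPKM + 1) scale, and a difference of 1 or more, a 2-fold difference on that scale, is the call.

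lola was the most abundant of the 7 genes in every library, and Dscam the least abundant. Longitudinals lacking, the protein of lola, is needed for axon growth and guidance. Its locus on 2R, 6369400 to 6430960 (all coordinates are dm3), had 87.3 FPKM in hom, 90.8 in tg1, 96.2 in CAG and 99.3 in tg2. Of the tested loci, 91.5% had a lower mean than lola. fru, on 3R from 14239012 to 14371354, encodes the regulators of male courtship and is spliced differently in the sexes. It had 33.3 FPKM in hom, 34.6 in tg1, 38.1 in CAG and 38.7 in tg2. mod(mdg4), on 3R from 17175575 to 17203121, encodes chromatin proteins, among them a partner of Su(Hw) at the insulator of the gypsy transposon. It had 32.4 FPKM in hom, 30.5 in tg1, 33.3 in CAG and 30.4 in tg2. In each library fru lay above this row of mod(mdg4), although the lowest value of fru and the highest of mod(mdg4) met at 33.3 FPKM. With the 2 joined rows of its locus added, mod(mdg4) had 44.7 to 52.9 FPKM and lay above fru in each library.

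ttk and psq held the middle of the order and could not be ranked against each other. Tramtrack, the product of ttk, represses neuronal fates. ttk, on 3R from 27539591 to 27562664, had 20.5 FPKM in hom, 17.5 in tg1, 19.3 in CAG and 20.2 in tg2. Pipsqueak, the product of psq, binds GA-rich DNA and acts in oogenesis and in silencing by Polycomb proteins. psq, on 2R from 6445277 to 6504751, had 17.1 FPKM in hom, 19.8 in tg1, 18.7 in CAG and 23.0 in tg2. The ranges of ttk and psq overlap, with ttk above psq in CAG and hom and below it in tg1 and tg2.

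The lowest levels were those of ken and Dscam, which nevertheless stood near the middle of all tested loci. Ken is a transcriptional repressor related to mammalian BCL6 that acts on a subset of the targets of the JAK/STAT pathway. ken, on 2R from 19757798 to 19764965, had 12.9 FPKM in hom, 12.7 in tg1, 11.8 in CAG and 11.0 in tg2. Dscam, on 2R from 3206660 to 3269374, had 8.59 FPKM in hom, 8.80 in tg1, 10.4 in CAG and 10.8 in tg2. The ranges of ken and Dscam did not overlap. A mean below that of ken was found at 51.1% of the tested loci, and a mean below that of Dscam at 44.3%.

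**Figure D1:**
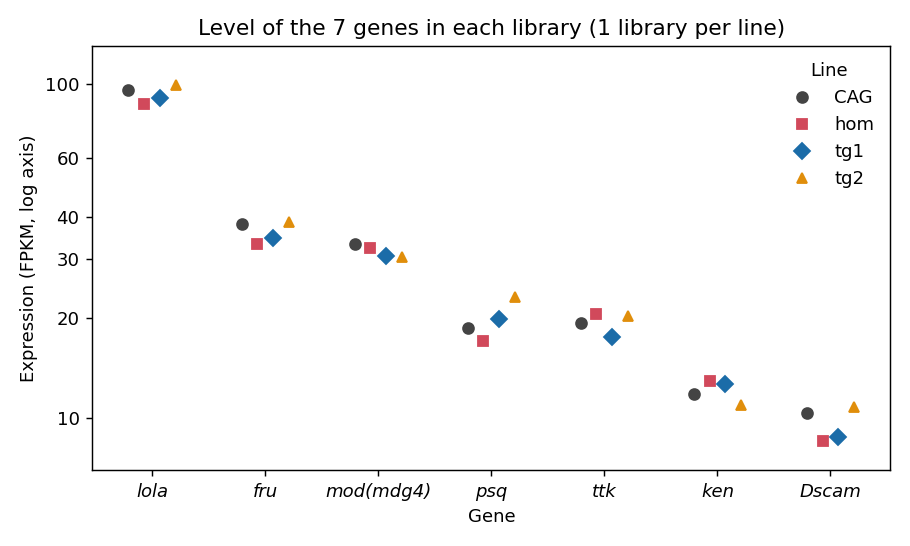
Each point is the FPKM value of a gene (horizontal axis) in 1 library, on a log axis; marker and colour give the line. The 4 points of a gene lie close together compared with the distance from lola, at 87.3 to 99.3 FPKM, to Dscam, at 8.59 to 10.8 FPKM.

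No member differed between any pair of lines by the call. The 6 pairs share libraries and are not independent of each other. Between hom and CAG 0 of 7 member loci were called, where 5.30% of all tested loci were called. The count was also 0 of 7 in the other pairs, against 3.55% of all tested loci for tg1 and CAG, 4.59% for tg2 and CAG, 3.54% for tg1 and hom, 6.48% for tg2 and hom, and 3.31% for tg2 and tg1. In at least 1 of the 6 pairs 11.6% of all tested loci were called. At 0 of the 7 members did 1 library stand at least 1 from each of the other 3, as it did at 3.78% of all tested loci. With 7 loci, counts of 0 are near these background shares and do not set the genes apart from other loci.

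By the deposited values the member furthest from equal levels was psq. Its value in tg2, 23.0 FPKM, was 1.35 times that in hom, 17.1 FPKM, a difference of 0.41 between tg2 and hom. Dscam followed with 10.8 FPKM in tg2 and 8.59 in hom, a ratio of 1.26 and a difference of 0.30. In ttk the highest library, hom, exceeded the lowest, tg1, by a factor of 1.17, and in ken hom exceeded tg2 by a factor of 1.17. The ratio of highest to lowest library was 1.16 in fru, 1.14 in lola and 1.10 in mod(mdg4), the smallest of the 7.

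Over the 4 libraries, the gap between highest and lowest value on the log2 scale was 0.13 in mod(mdg4), 0.18 in lola, 0.21 in fru and ken, 0.22 in ttk, 0.30 in Dscam and 0.41 in psq. The median gap was 0.42 over all tested loci and 0.39 over the 8626 loci whose mean reached 5 FPKM. Only 4.70% of tested loci had a smaller gap than mod(mdg4), and 49.0% had a smaller gap than psq. This ranking turned when each library was rescaled without its most abundant locus. Each value was then divided by the share of the library's FPKM sum that the other loci held. FPKM is divided by transcript length, so this share need not be the share of fragments. After this rescaling the gap was 0.17 in psq, the smallest of the 7, 0.41 in mod(mdg4) and 0.49 in ken, the widest. The median gap over all tested loci was 0.53. This setting moved the median of all tested loci for tg2 against hom by −0.27, to −0.24. Relative to that shift, the difference of tg2 from hom stood at 0.41 in psq and −0.10 in mod(mdg4). Under median centring and trimmed mean scaling mod(mdg4) stayed lowest, at 0.13 and 0.12, and psq highest, at 0.37 and 0.40. With the 2 joined rows of its locus added, mod(mdg4) had a gap of 0.24, wider than lola, fru, ken and ttk. Gaps depend on level as well, and loci with low values vary more.

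**Figure D2:**
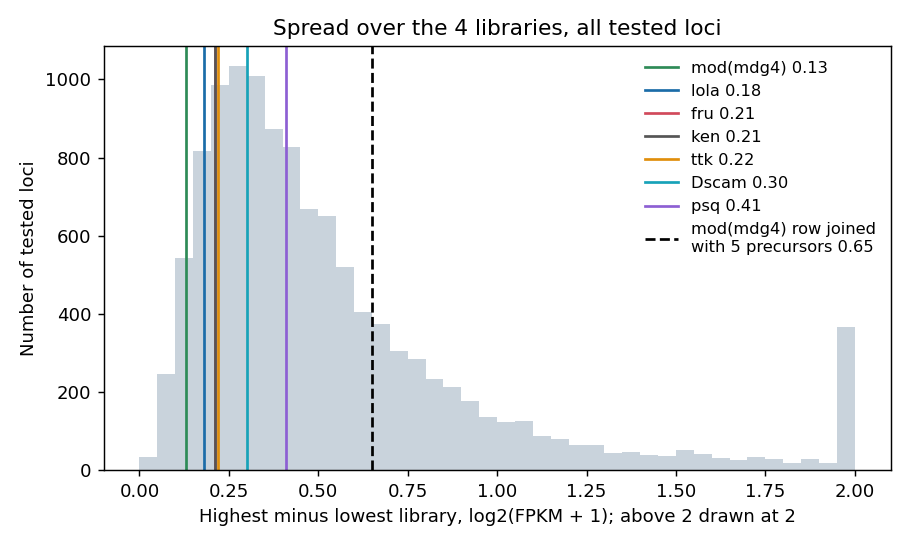
The histogram counts tested loci by the gap between their highest and lowest library in log2(FPKM + 1), with gaps above 2 drawn at 2; solid lines mark the 7 genes and the dashed line the mod(mdg4) row joined with 5 precursors. The 7 genes lie between 0.13 and 0.41, left of the median of 0.42, and the joined row lies at 0.65.

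lola, fru and Dscam shared one order of the libraries, with hom lowest, then tg1, then CAG, and tg2 highest. The share of all tested loci with this full order is not given here. psq also had its lowest value in hom and its highest in tg2, with CAG below tg1. In the difference of tg2 from hom, lola had 0.18, fru 0.21, Dscam 0.30 and psq 0.41. ken went the other way with −0.21, and mod(mdg4) with −0.09 and ttk with −0.02 lay near 0. None of these differences reached the call. The median over the 7 loci was 0.18, and that over all tested loci was 0.02. When each library was rescaled without its most abundant locus, the median of all tested loci for tg2 against hom moved by −0.27, and lola and fru changed sign to −0.10 and −0.07. Relative to that shift they stood at 0.17 and 0.20. Under this rescaling tg1 was lowest in lola, fru, Dscam and psq, and CAG was highest in lola, fru and Dscam.

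Between hom and CAG the members ranged from −0.25 in Dscam to 0.11 in ken, with a median of −0.12 against −0.01 over all tested loci. Between tg1 and CAG they ranged from −0.22 in Dscam to 0.09 in ken, with a median of −0.12 against −0.03. Between tg2 and CAG the range was −0.13 in mod(mdg4) to 0.29 in psq, with a median of 0.05 against −0.01. Between tg1 and hom the range was −0.22 in ttk to 0.20 in psq, with a median of 0.03 against −0.01. Between tg2 and tg1 the members ranged from −0.19 in ken to 0.27 in Dscam, with a median of 0.16 against 0.04. In every pair the middle of the 7 genes lay within 0.2 of equality by the deposited values. Rescaled without the most abundant locus it was −0.36 for tg1 against CAG and −0.24 for tg2 against CAG. The median of all tested loci was then −0.25 and −0.27.

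**Figure D3:**
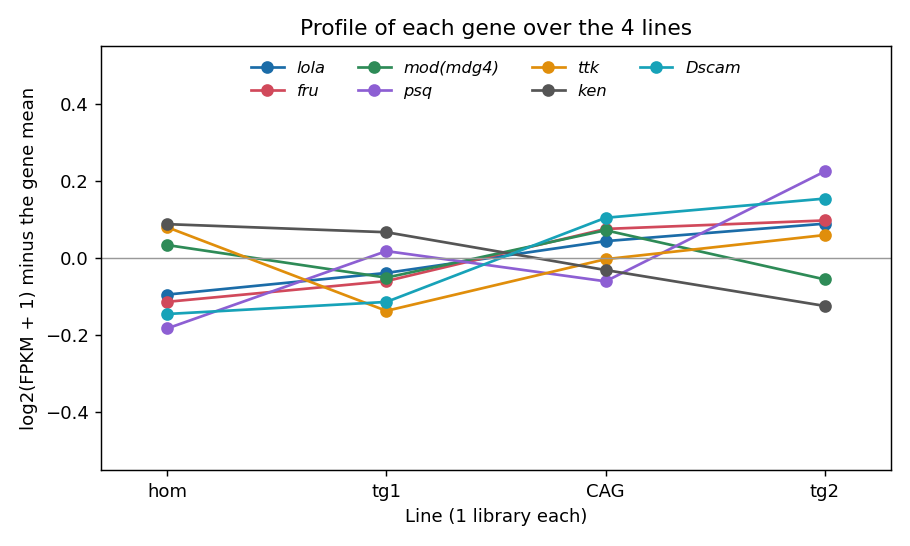
For each gene the points give log2(FPKM + 1) in a library minus the mean of that gene over the 4 libraries, with the lines hom, tg1, CAG and tg2 along the horizontal axis; connecting strokes only guide the eye. The lines are placed in the low-to-high order of lola, fru and Dscam by the deposited values, so these genes climb by the choice of axis. psq has the lowest point in hom and the highest in tg2, and ken descends, with a gap of 0.21.

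Markers of neurons and of several other tissues, though not of all, also tended to be lowest in hom and highest in tg2. All 6 tested loci of the neuron marker list (cpx, Snap25, Syn, para, elav and brp) had their lowest value in hom and their highest in tg2. Their summed level was 181 FPKM in hom, 269 in tg1, 251 in CAG and 388 in tg2, and none was at 0. Between tg2 and hom 2 of the 6 were called higher in tg2, cpx with 193 and 81.6 FPKM and Snap25 with 125 and 57.5, where 3.78% of all tested loci were called higher. elav, a neuronal RNA-binding protein gene, had 8.46 FPKM in hom and 12.3 in tg2. The glial marker list summed to 378 FPKM in hom, 507 in tg1, 480.1 in CAG and 649 in tg2, with 4 of its 6 loci lowest in hom and 4 highest in tg2. Of the photoreceptor markers 5 of 5 were lowest in hom and 4 highest in tg2, and of the flight muscle markers 4 of 5 and 3. Of the germline markers vas, osk, nos and piwi 3 of 4 were lowest in hom and 3 highest in tg2. Of the testis markers 2 of 5 were lowest in hom and 5 highest in tg2. Of the hemocyte markers 2 of 5 were lowest in hom and 1 highest in tg2. Accessory gland markers had 2 of 4 and 0, and larval fat body markers 0 of 4 and 0. Over all tested loci 29.6% were lowest in hom and 31.6% highest in tg2. Rescaled without the most abundant locus, these shares were 14.8% and 14.4%. All 6 neuron markers remained lowest in hom, 3 were highest in tg2, and cpx and Snap25 fell short of the call at 0.94 and 0.82. The glial markers then had 4 of 6 lowest in hom and 3 highest in tg2, and the photoreceptor markers 4 of 5 and 0. For flight muscle markers these counts were 2 of 5 and 1, and for the germline markers 2 of 4 and 2. Testis markers had 1 of 5 and 5. The part of tissue content in the values of lola, fru, Dscam and psq was not tested. In whole animals, fewer cells of a type and less RNA per cell cannot be told apart.

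At the mod(mdg4) locus the deposited table holds 3 rows with the same span, and these rows behaved differently. The row that carries mod(mdg4) alone was the steady one described above. Another joins mod(mdg4) with CG42769, now named pre-mod(mdg4)-T, a precursor gene on the plus strand. It had 7.15 FPKM in hom, 6.76 in tg1, 6.95 in CAG and 6.23 in tg2, a ratio of highest to lowest of 1.15. The last row joins mod(mdg4) with CG42771, CG42772, CG42774, CG42775 and CG42776, which are now named pre-mod(mdg4)-Y, -X, -AE, -W and -V. These 5 precursor genes also lie on the plus strand, opposite to mod(mdg4), and supply tails for trans-splicing.

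The row with 5 precursors had 13.3 FPKM in hom, 11.7 in tg1, 8.18 in CAG and 8.11 in tg2. CAG and tg2 were almost equal, while hom was at 1.63 times and tg1 at 1.43 times the level of CAG. On the log2 scale hom differed from CAG by 0.64, tg1 from CAG by 0.47 and tg2 from hom by −0.65, all short of the call. A smaller gap over the 4 libraries was found at 73.7% of all tested loci and at 80.1% of the 916 tested loci with joined names, whose median gap was 0.37. Set against the row of mod(mdg4) alone, the row with 5 precursors stood at a ratio of 0.410 in hom, 0.385 in tg1, 0.246 in CAG and 0.267 in tg2. Its share of the sum of the 3 rows was 25.2% in hom, 23.9% in tg1, 16.9% in CAG and 18.1% in tg2.

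**Figure D4:**
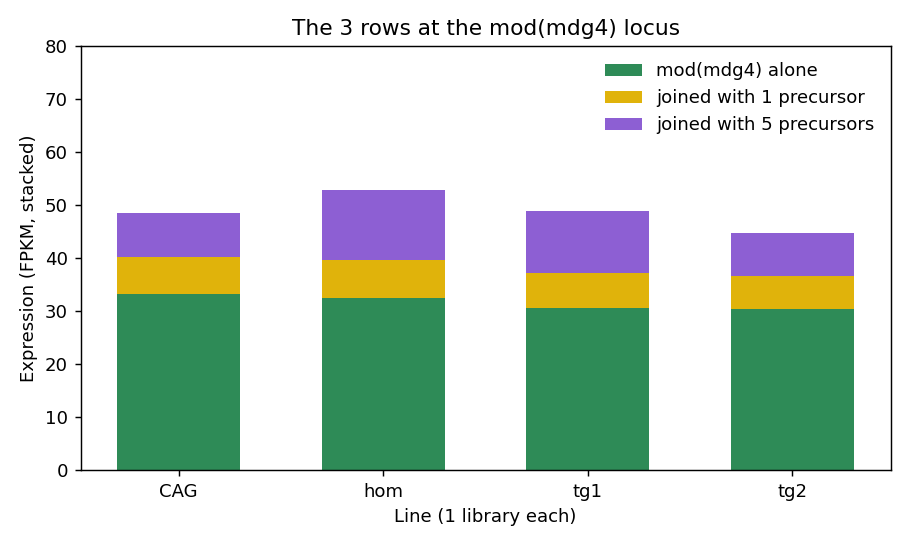
Stacked bars give the FPKM of the 3 rows at the mod(mdg4) locus in each library: the row of mod(mdg4) alone, the row joined with pre-mod(mdg4)-T and the row joined with 5 further precursors. The green part differs by a factor of 1.10 at most, while the purple part is 13.3 FPKM in hom and 11.7 in tg1 against 8.18 in CAG and 8.11 in tg2.

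The sum of the 3 rows was 52.9 FPKM in hom, 48.9 in tg1, 48.4 in CAG and 44.7 in tg2, a ratio of highest to lowest of 1.18. Adding the joined rows turned the difference of hom from CAG from −0.04 to 0.12 and that of tg1 from CAG from −0.12 to 0.01. The sources used here do not give which transcripts each joined row holds. The library kit named in the labels does not mark strand, so fragments from the plus and minus strands of this span can be assigned to the wrong row, and the split between rows is uncertain.

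Values of the neighbours on the chromosome were as follows. lola and psq lie next to each other on 2R with 14316 bases between them, and the ratio of lola to psq was 5.10 in hom, 4.59 in tg1, 5.14 in CAG and 4.31 in tg2. CG17765, 8 bases beside lola, had between 38.9 and 41.2 FPKM. CG16791, 85 bases beside mod(mdg4), had between 15.6 and 17.3 FPKM, while tin, a heart regulator on its other side, stayed below the filter. CstF-50, a factor of RNA 3′ end formation, has the same span as ttk in the table and had 4.87 FPKM in hom, 6.40 in tg1, 4.78 in CAG and 4.31 in tg2, so tg1 was highest there and lowest in ttk. Fragments of genes that share a span can be shared. CG11563 on the other side of ttk had between 5.27 and 7.63 FPKM, and CG34046 stayed below the filter. Beside Dscam, CG12164 had 41.4 FPKM in hom, 30.1 in tg1, 31.0 in CAG and 13.6 in tg2, a gap of 1.54, whereas cos, a Hedgehog pathway component, had a gap of 0.14. CG11883 beside psq had a gap of 0.25, CG7685 and CG7691 beside fru 0.27 and 0.58, and CG5569 and TM4SF beside ken 0.33 and 0.22.

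Genes with a profile like the most variable members were sought among 9632 protein-coding loci that had a value above 0 in every library, by the Euclidean distance between log2 profiles over the 4 libraries. Nearest to psq were CG9030, Dyrk3, a protein kinase gene, and CG34380 (now smal), at distances of 0.0195, 0.0228 and 0.0242. Dyrk3 had 32.2 FPKM in hom, 36.9 in tg1, 34.7 in CAG and 43.6 in tg2. Nearest to Dscam were CG42759, CG11658 and CG8138 at 0.0143, 0.0173 and 0.0216, and CG42759 had 239 FPKM in hom, 246 in tg1, 283 in CAG and 293 in tg2. Profiles of only 4 values leave many near matches among so many loci.

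Among relatives with a BTB domain, lov and br passed the call. Of 18 listed genes 10 gave tested loci, with a median gap of 0.32. CG16778 (lov, jim lovell), a regulator of larval and adult behaviour, had 7.53 FPKM in hom, 14.6 in tg1, 10.0 in CAG and 23.3 in tg2, with hom lowest and tg2 highest as in psq. br, the ecdysone-induced regulator of the pupal stage, had 9.78 FPKM in hom, 4.25 in tg1, 5.26 in CAG and 5.04 in tg2. Thus 1 of 10 was called higher in tg2 than in CAG, where 2.25% of all tested loci were, 1 of 10 lower in tg1 than in hom, against 1.72%, and 1 of 10 higher in tg2 than in hom, against 3.78%. With a pseudocount of 5 the call of br was lost, at −0.68, and lov stayed called between tg2 and hom, at 1.18, but not between tg2 and CAG, at 0.91. Without the most abundant locus lov was also short of the call between tg2 and CAG, at 0.89. lolal, the small BTB protein that binds Pipsqueak, was the most abundant, with 21.0 FPKM in hom, 24.6 in tg1, 23.9 in CAG and 21.3 in tg2.

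No locus was called in any pair in the lists of genes that work with mod(mdg4), fru, ttk, ken, psq and Dscam, where 11.6% of all tested loci were called in any pair. With lists of 4 to 14 loci these counts of 0 do not set the lists apart. Listed genes without a tested locus of a single name were not examined. For fru these include Sxl, tra and tra2, for ken Stat92E, and for ttk sina, sinah and MEP-1. For Dscam they include Dscam2, fra, Abl and sli, and for mod(mdg4) CG9740, Trl and Z4. In the list of chromatin insulator proteins, which act with mod(mdg4), 0 of 9 tested loci were called in any pair, and BEAF-32, a boundary factor, had between 9.87 and 10.5 FPKM. The widest gaps of this list were 0.58 in CG8436 (Ibf1) and 0.42 in CG7928 (ZIPIC). In the sex determination list, around fru, 0 of 7 tested loci were called, from 11 listed genes. her and ix, cofactors of this pathway, had gaps of 0.47 and 0.46, and snf, a spliceosome protein, was the most abundant with 21.6 to 25.8 FPKM. For ttk, 0 of 4 tested loci of its turnover and co-repressor list were called, from 7 listed genes. phyl, the adaptor that directs Tramtrack to degradation, had 1.88 FPKM in hom, 2.32 in tg1, 1.75 in CAG and 2.48 in tg2, ebi had a gap of 0.29, and the co-repressor gene CtBP had 27.5 to 30.3 FPKM.

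For ken, 0 of 4 tested loci of the JAK/STAT list were called, from 9 listed genes. Socs36E, a feedback inhibitor of this pathway, had 10.7 FPKM in hom, 7.03 in tg1, 9.52 in CAG and 8.10 in tg2, and vvl, the most abundant, had 14.1 to 17.8 FPKM. For psq, 0 of 14 loci of the Polycomb list were called. esc had 2.44 FPKM in hom, 2.28 in tg1, 2.95 in CAG and 4.73 in tg2, ph-d had a gap of 0.49, and pho, a DNA-binding member and the most abundant, had 34.2 FPKM in hom, 39.4 in tg1, 34.3 in CAG and 47.7 in tg2. For Dscam, 0 of 11 loci of its relatives and guidance partners were called. CG42330 (Dscam4) had 3.90 FPKM in hom, 5.64 in tg1, 3.48 in CAG and 7.02 in tg2, and Dscam3 had 2.32, 2.57, 3.32 and 3.89 FPKM in the same order of lines. Dscam3 thus had the same order of libraries as Dscam, and Dscam4 did not. Nrg, a neural adhesion molecule, was the most abundant of this list with 61.3 to 73.3 FPKM.

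In the list of splicing regulators 1 of 25 tested loci was called higher in tg2 than in hom and in CAG, and 0 were called lower in these pairs. Of all tested loci 3.78% were called higher in tg2 than in hom and 2.25% higher in tg2 than in CAG, so 1 of 25 is near the background. The called locus was fne, a neuronal relative of elav, with 4.34 FPKM in hom, 8.89 in tg1, 5.03 in CAG and 11.5 in tg2. Both calls of fne were lost with a pseudocount of 5, at 0.82 and 0.72, and that against CAG also without the most abundant locus, at 0.82. mbl, the muscleblind splicing factor and the most abundant of the list, had 207 FPKM in hom, 190.0 in tg1, 239 in CAG and 153 in tg2. The median gap of the list was 0.27.

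Over 23 tested loci of the list of other genes known for many isoforms the median gap was 0.42, that of all tested loci, and 18 had their lowest value in hom. Rescaled without the most abundant locus, 9 had their lowest value in hom. Sh, a potassium channel gene, had 23.6 FPKM in hom, 35.4 in CAG and 48.3 in tg2, with tg1 between the last pair, and was called higher in tg2 than in hom, as were 3.78% of all tested loci. Its difference lay at the threshold, 1.00, and the call was lost under median centring (0.96), trimmed mean scaling (0.99), removal of the most abundant locus (0.72) and a pseudocount of 5 (0.90). br was the other called locus, lower in tg1 than in hom, as were 1.72% of all tested loci, and its call was lost with a pseudocount of 5. Mhc, the myosin heavy chain gene and the most abundant, had 2010.5 FPKM in hom, 2336 in tg1, 2549 in CAG and 2638 in tg2. The list median for hom against CAG was −0.28, against −0.01 over all tested loci, and for tg2 against hom 0.35 against 0.02.

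Across protein-coding loci of a single name, those with 1 annotated transcript had the widest median gap and the lowest median level of 4 classes. The median gap was 0.44 for 4287 loci with 1 transcript, 0.38 for 4436 loci with 2 to 4, 0.32 for 765 loci with 5 to 9 and 0.34 for 184 loci with 10 or more. The median level rose over the same classes from 8.76 to 12.4, 19.4 and 28.7 FPKM. The share called in any pair was 12.1%, 7.10%, 4.31% and 5.98%. Number of transcripts and level move together over these classes, and their separate parts in the gap were not tested. By the deposited values and within their classes ken, ttk, fru, lola, mod(mdg4) and Dscam lay below the median gap, and psq above it.

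**Figure D5:**
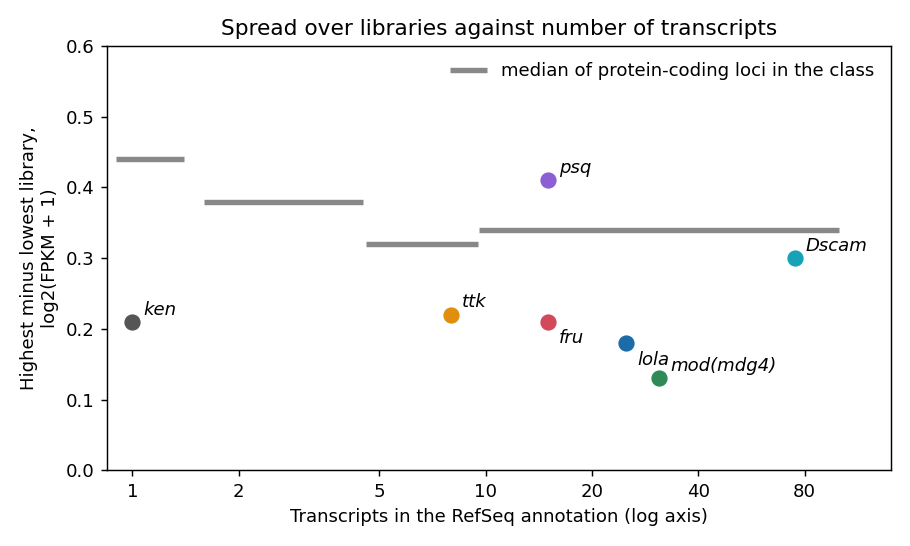
Points give the gap between highest and lowest library in log2(FPKM + 1) for the 7 genes against their number of RefSeq transcripts on a log axis; grey strokes give the median gap of tested protein-coding loci with 1, 2 to 4, 5 to 9 and 10 or more transcripts. psq at 0.41 lies above the stroke of its class at 0.34, and the other 6 genes lie below theirs.

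The libraries differed in ways that touch these values. A level of 1 FPKM or more was reached by 11380 to 11659 loci in a library. The depth relative to CAG, read from the steps of low values, was 0.766 in hom, 1.12 in tg1 and 1.16 in tg2, and the total depth is unknown. The most abundant locus took 30.4% of the FPKM sum in hom, 17.5% in tg1, 30.2% in CAG and 14.9% in tg2. Markers of the adult fly were present in all libraries, with Act88F of flight muscle at 5162 to 6415 FPKM and the rhodopsin gene ninaE at 747 to 962 FPKM. The larval fat body list summed to 8413 FPKM in hom against 2339 to 3010.5 in the others, and the accessory gland list to 337 FPKM in CAG against 71.9 to 115. The germline list of vas, osk, nos and piwi summed to 4.28 FPKM in hom, 6.59 in tg1, 15.7 in CAG and 18.8 in tg2. Testis markers summed to 791 to 1199.6 FPKM. The hemocyte markers summed to 90.4 to 122 FPKM, but 2 of the 5 stood apart in tg2 in opposite directions, nimC1 with 2.11 FPKM against 15.4 to 17.9 in the others and He with 4.49 against 0.862 to 1.18. The part of these differences in tissue content or stage in the values of the 7 genes was not tested.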

How the data were processed

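Ribosomal RNA was removed from total RNA, TruSeq v2 libraries were made and 48 nt were read from both ends, per the labels' protocols. The submitters' processing notes list Cufflinks, TopHat, bedtools and SAMtools, with no versions, and the build dm3. FPKM values were computed by the authors and are headed as such, per the file headers; the sources used here do not give the annotation, the use of strand or the treatment of reads with several positions. No read counts are at hand, so no count test was run and no interval can be given.

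The 4 files, 1 per line, hold the same loci and were joined with pandas 2.3.3 in Python 3.11.15. Differences were taken as log2(FPKM + 1), which understates changes of low loci, where the mean reached 1 FPKM; a call needs a difference of at least 1. Starts were raised by 1, because the deposited span equalled the Release 6 gene length at 1189 of 11838 matched loci when starts count from 0, and at 131 when they count from 1. Symbols and transcript numbers came from RefSeq and from Ensembl release 115. Relative depth is the most frequent ratio of values under 0.5 FPKM, found at 109 of 463 low loci for hom, 60 of 524 for tg1 and 102 of 502 for tg2.

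Every member is named. From each gene list the 2 loci with the widest gap and the most abundant are named, along with neighbours and nearest profiles; further genes were named after their values were seen. The members, the lists and this rule were chosen with earlier results of these data known. Alternatives were the pseudocount, the filter, 3 rescalings, summing of loci of a name and leaving out loci with a value of 0. Adding the joined rows was chosen after seeing the data. The rescaling without the most abundant locus divided each value by the share of the FPKM sum held by all other loci. It takes a share of FPKM as a share of fragments, which the values do not give.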

Additional observations from a re-analysis of the deposited data

How the results depend on the processing

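The count of called members stayed at 0 in all 6 pairs under all 10 alternatives, and so did the count of members at which 1 library stood apart. Some alternatives could not change a member: the filters, the summing of loci of a name and the leaving out of loci with a value of 0. Every member had a mean above 5 FPKM, a single locus and no value of 0. Leaving the most abundant locus of each library out of the sum moved the member median to −0.36 for tg1 against CAG, −0.24 for tg2 against CAG, −0.10 for tg2 against hom and −0.19 for tg1 against hom, since this setting shifts all loci by −0.23 to −0.27 in these pairs; 12 of 42 single member differences changed sign under it. Of 90 counts of called loci over the 9 lists, 83 stayed within 1.5 times. Most of these counts belong to lists without a call as reported. The filters, the summing of loci of a name and the leaving out of loci with a value of 0 changed no list count. The 83 therefore does not measure how stable the calls were. With a pseudocount of 0.1 the Polycomb list had 1 call, and the other genes with many isoforms had 3 in place of 2. With a pseudocount of 5 the BTB relatives had 1, the splicing regulators 0 and the other genes with many isoforms 0, and the last had 1 under median centring, trimmed mean scaling and removal of the most abundant locus. No paired analysis was possible because each line had 1 library. Depth in fragments is unknown, and hom, the shallowest library, gives the least precise values.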
